A study of Bombyx mori with 4 samples.

Results

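DNA transposons are mobile elements that move as DNA, without the RNA copy that retrotransposons use. Most encode a transposase, which cuts the element out at its inverted terminal repeats and inserts it elsewhere, whereas Helitrons are thought to move by a rolling-circle mechanism with a helicase. Many copies have lost the transposase gene and depend on an enzyme made by another element. In silkworm germ cells, Siwi loaded with piRNAs (Siwi-piRISC) cleaves transposon transcripts, and this silencing acts after transcription.

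The silkworm gene library used to count the total RNA reads lists 18596 sequences, of which 1716 are transposon entries other than gene models, here called curated. The class given in the entry is DNA for 122 of these. The 79 DNA transposons described here were chosen by their level: RPKM, the read count normalised to sequence length and to genome-mapped reads, above 1 in at least 1 of 2 conditions, BmN4 cells with Luc KD (control) or with Siwi KD. BmN4 is an ovary-derived cultured cell line of the silkworm *Bombyx mori*. Both conditions received siRNA by electroporation, against luciferase in Luc KD and against Siwi in Siwi KD, so that the siRNA target was the labelled difference. The remaining Siwi level is not given here, because the gene models in the table carry identifiers that could not be paired with gene names. For the same reason, germ cell markers could not be used to check the cell type.

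Each condition had 2 libraries of 68.7 to 81.1 M reads, which the authors merged. The table thus holds 1 value per sequence and condition. No difference below has a replicate check, no p-value was computed, and all comparisons describe the merged libraries. Intervals are exact 95% intervals of the RPKM ratio computed from read pairs and cover counting error only. In all, 77350240 reads were counted in Luc KD, against 84961588 in Siwi KD. The DNA transposons took 449590 and 546870 of them, which was 0.581% (95% Wilson interval 0.579% to 0.584%) and 0.644% (0.641% to 0.646%). These shares also depend on the reads of other sequences. Of the reads on curated transposons above 1 RPKM, DNA transposons took 1.20% in Luc KD and 1.42% in Siwi KD. Without the most abundant curated transposon, these shares were 8.05% and 6.61%, so the direction depended on that sequence. Each count is of sense reads that match the library sequence, from whatever transcript. The methods name a random and a multiple counting mode for reads with several targets, and the table does not say which it holds, so that similar elements may share reads.

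Most DNA transposons had higher RPKM in Siwi KD, and the ratio of RPKM exceeded 2 for 6. Of these 6, 3 passed 1 RPKM only in Siwi KD, and ratios above 2 were not counted over all sequences. Of the 79, RPKM was higher in Siwi KD for 66 (83.5%) and lower for 13. By comparison, 46.9% of all 9549 sequences above 1 RPKM were higher, and 79.6% of the 1610 transposons among them. Changes are given as log2 FC, the log2 ratio of RPKM to which a pseudo-count of 1 was added, which understates the change of elements with few RPKM. Its median was 0.32, with quartiles of 0.12 and 0.46, and the full range was -0.43 to 1.52. The log2 FC was above 1 for 4 elements (5.06%), against 1.98% of all sequences above 1 RPKM. It was below -1 for 0 elements, against 0.534% of all sequences. For 55 of the 79, the counting interval of the RPKM ratio lay wholly above 1, for 5 wholly below 1, and for 19 it included 1. Such intervals were not counted over all sequences, so these counts cannot show whether DNA transposons stand out. The RNA came from whole cultures, so fewer cells that express an element and less of its RNA per cell cannot be told apart. Protein-coding genes had a median log2 FC of -0.07, and scaling to the reads on protein-coding genes shifts every log2 ratio by 0.11. Centred on that median, 69 of the 79 were higher in Siwi KD, since Ins11, BmTE_RM6-376 and BmTE_RM5-1924 changed from lower to higher. Scaled to the reads, Mariner-3_BM changed as well, which gave 70. The counting intervals were not recomputed with either adjustment.

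The threshold affects these counts. RPKM in Luc KD exceeded 1 for 70 of the 79, and 57 of these 70 were higher in Siwi KD, with a median log2 FC of 0.31. The other 9 passed only in Siwi KD and therefore had to be higher there, including 2 of the 4 with a log2 FC above 1. No element passed in Luc KD alone (0 of 79). Nearest above the threshold were BmTE_RM6-2517 (0.553 RPKM in Luc KD, 1.07 in Siwi KD), BmTE_RM6-5342 (0.931 and 1.13) and BmTE_RM6-5261 (0.516 and 1.21). Nearest below it were Sola1-2_BM (0.357 and 0.989), BmTE_RM6-2082 (0.682 and 0.974) and Helitron-N1B_BM (0.923 and 0.695).

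**Figure D1:**
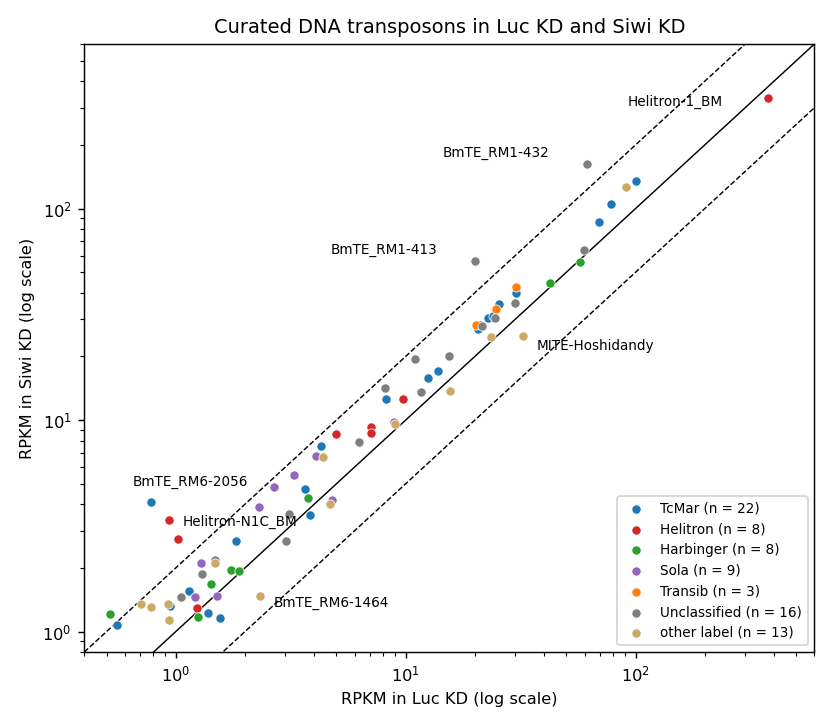
RPKM of the 79 DNA transposons in Luc KD (x axis) and Siwi KD (y axis), both on log scales, 1 point per element, coloured by superfamily label. The solid line marks equal values and the dashed lines 2-fold differences. Most points lie between the solid and the upper dashed line, Helitron-1_BM is the most abundant element and lies below the solid line, and 6 points lie above the upper dashed line, BmTE_RM1-432 and BmTE_RM1-413 being the most abundant of them.

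Levels were uneven. In Luc KD, the median was 4.80 RPKM, with quartiles of 1.48 and 21.3 RPKM, and in Siwi KD it was 7.53 RPKM. Summed over the 79, RPKM reached 1538 in Luc KD against 1911 in Siwi KD, a ratio of 1.24. Helitron-1_BM alone held 24.5% of the sum in Luc KD, and the 10 most abundant elements held 63.0%. The order of the elements was largely kept, with a Spearman correlation of 0.96 between the conditions over the 79 elements, which share the same 2 merged libraries. By name, the most abundant after Helitron-1_BM in Luc KD were BmTE_RM1-364 (101 RPKM), BmpiggyBac-MER85 (91.0 RPKM), Mariner-4_BM (78.0 RPKM) and MAR1_BM (69.6 RPKM). BmTE_RM1-432 moved from rank 6 in Luc KD to rank 2 in Siwi KD, and MITE-Hoshidandy from rank 10 to rank 23.

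The net increase was 372.5 RPKM, unevenly spread over the elements. Elements lower in Siwi KD count against it, so the shares of the higher ones add up to more than 100%. Of the net increase, BmTE_RM1-432 accounted for 27.1%, BmTE_RM1-413 for 9.85%, BmpiggyBac-MER85 for 9.55% and BmTE_RM1-364 for 9.37%. Helitron-1_BM, which was lower in Siwi KD, accounted for -12.2%. Without it, the ratio of the sums was 1.36, and without BmTE_RM1-432 it was 1.18.

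Elements of the Tc1/mariner superfamily, labelled TcMar, formed the largest group. Their transposases belong to a large family common in insects, and typical copies hold a single gene between short inverted repeats. The label begins with TcMar for 42 of the 122 curated DNA transposons, and 22 of these were above 1 RPKM. RPKM was higher in Siwi KD for 19 of the 22 and lower for 3. Their summed RPKM was 447 in Luc KD, against 593 in Siwi KD, a ratio of 1.33, which made up 39.2% of the net increase.

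The 12 TcMar elements above 10 RPKM in either condition were all higher in Siwi KD, by ratios from 1.23 to 1.54. Among the 21 other DNA transposons above 10 RPKM, 17 were higher. BmTE_RM1-364 (1229 nt) had 101 RPKM in Luc KD, against 135 in Siwi KD, a ratio of 1.35 (interval 1.31 to 1.39). Mariner-4_BM (1291 nt) had 78.0 and 104.6 RPKM, a ratio of 1.34 (1.30 to 1.39). MAR1_BM (1310 nt) had 69.6 and 86.2 RPKM, a ratio of 1.24 (1.20 to 1.28). Thus, all 3 were higher in Siwi KD, and the ratios of BmTE_RM1-364 and Mariner-4_BM were within counting error of each other. Bmmar6 (1307 nt), a silkworm mariner, had 25.5 and 35.3 RPKM, a ratio of 1.39. Mariner-2_BM had 30.2 and 40.0 RPKM and Mariner-1_BM 20.7 and 27.1 RPKM, ratios of 1.32 and 1.31. The 480-nt robertson-mariner, the shortest of these 12, had 21.0 and 28.2 RPKM, a ratio of 1.34. The lowest ratio was that of BmTE_RM5-1721 (1.23) and the highest that of BmTE_RM6-710 (8.19 and 12.6 RPKM, ratio 1.54, interval 1.41 to 1.69). BmTE_RM6-710 exceeded 10 RPKM only in Siwi KD and thus had to be higher there. Among the 11 above 10 RPKM in Luc KD, the ratio ranged from 1.23 to 1.39. Some of the 12 differed beyond counting error, such as BmTE_RM6-710 and BmTE_RM1-364 from MAR1_BM. The SD of their log2 ratio was 0.085, against a median counting error of 0.038. Over the 21 other DNA transposons above 10 RPKM, the SD was 0.47. These 21 carry several labels and include BmTE_RM1-413 and BmTE_RM1-432, with ratios of 2.83 and 2.64. Among them, the 3 Transib elements had an SD of 0.035, so a narrow spread was not particular to TcMar. These differences in spread were not tested, and how far the 12 share reads was not measured.

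TcMar elements with few RPKM varied more. BmTE_RM6-2056 (2010 nt) had 0.782 RPKM in Luc KD (192 reads) and 4.12 RPKM in Siwi KD (1074 reads). Its ratio of 5.27 (4.23 to 6.62) and its log2 FC of 1.52 were the highest among the 79 DNA transposons. BmTE_RM6-8176 had 4.27 and 7.53 RPKM, a ratio of 1.76. BmTc1, named for the Tc1 branch, had 1.15 and 1.55 RPKM, a ratio of 1.36 (1.06 to 1.73). The 3 that were lower in Siwi KD were BmTE_RM1-533 (1.56 and 1.16 RPKM), Mariner-6_BM (1.39 and 1.22 RPKM) and Mariner-3_BM (3.82 and 3.56 RPKM), and the counting interval of each included 1. Of the 13 elements of the sub-label TcMar-Mariner, 3 passed 1 RPKM, and 7 had no read in either condition. These 7 were 66, 126, 191, 247, 336, 979 and 1135 nt long. For the plain label TcMar, 17 of 21 passed, with a median length of 1528 nt, so the labels differed in length as well. Elements named Mariner also occur under the plain label, such as Mariner-4_BM.

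**Figure D2:**
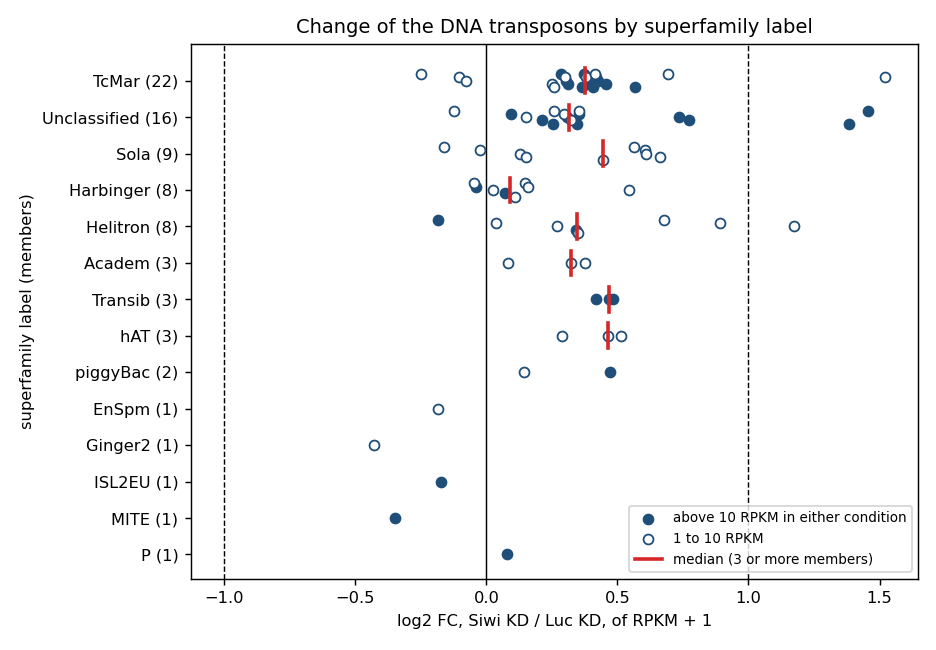
Log2 FC of RPKM + 1 (x axis, Siwi KD over Luc KD) for each of the 79 DNA transposons, by superfamily label (y axis, number of elements in brackets; labels beginning with TcMar, Sola or hAT and both Transib labels are joined). Filled points had more than 10 RPKM in either condition, open points had 1 to 10 RPKM, red bars mark medians, and dashed lines mark a log2 FC of -1 and 1. Filled TcMar points are crowded near the median of 0.38, Harbinger points lie near 0, and 4 points pass 1.

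Helitron elements differed among themselves in direction. Of 14 listed, 8 were above 1 RPKM. Helitron-1_BM (5072 nt) had 377 RPKM in Luc KD (233676 reads) and 331 RPKM in Siwi KD (218184 reads), a ratio of 0.88 (0.87 to 0.89). Its log2 FC was -0.18, against -0.12 when centred on the median of protein-coding genes and -0.07 when scaled to their reads. The other 7 were all higher in Siwi KD, as the threshold required of Helitron-N1C_BM, and their summed RPKM was 32.1 in Luc KD, against 46.6 in Siwi KD, a ratio of 1.45. For 1 of these 7, the counting interval of the ratio included 1 (0.81 to 1.36). Repbase-style names with N mark non-autonomous elements, which lack a complete set of genes. Helitron-N1_BM (432 nt) had 5.00 and 8.60 RPKM, a ratio of 1.72 (1.39 to 2.14). Helitron-N1C_BM (211 nt), the shortest of the 79, had 0.931 RPKM from 24 reads in Luc KD and 3.36 RPKM from 92 reads in Siwi KD. Its ratio was 3.61, with a wide counting interval of 1.88 to 7.49. BmTE_RM6-4364 (900 nt) had 1.02 and 2.74 RPKM, a ratio of 2.69 (1.97 to 3.72). Its log2 FC was 0.89 with the pseudo-count of 1 RPKM and 1.34 with one of 0.1 RPKM. BmTE_RM1-166 (665 nt), the only other Helitron above 10 RPKM, had 9.74 and 12.6 RPKM.

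Sola elements had the highest median ratio of the superfamilies with at least 5 members, at 1.64, although none exceeded 10 RPKM. Of 11 listed, 9 were above 1 RPKM, 7 of them higher in Siwi KD. BmTE_RM6-8256 had 2.68 and 4.81 RPKM, a ratio of 1.80 (1.58 to 2.05). BmTE_RM6-5862 had 4.08 and 6.74 RPKM (ratio 1.65), BmTE_RM6-105 3.28 and 5.50 RPKM (ratio 1.68) and BmTE_RM6-8172 2.31 and 3.88 RPKM (ratio 1.68). The counting intervals of these 4 overlapped, but they were named for being highest by log2 FC, so close ratios are partly a result of that choice. Among the other Sola elements, BmTE_RM6-2035 had a ratio of 1.64 (1.41 to 1.91) and BmTE_RM6-621 of 1.20 (0.81 to 1.80). Both were named after their values were seen. The most abundant Sola element, BmTE_RM1-605, had 8.87 and 9.78 RPKM, a ratio of 1.10 (0.97 to 1.26). Sola2-1_BM (3705 nt) was lower in Siwi KD, with 4.80 and 4.18 RPKM, a ratio of 0.87 (0.80 to 0.95). BmTE_RM6-376 had 1.51 and 1.47 RPKM.

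Harbinger elements had a low median change. Autonomous Harbinger elements encode a transposase and, separately, a Myb-like DNA-binding protein. Of 9 listed, 8 were above 1 RPKM, and their summed RPKM was 110.4 in Luc KD, against 112.6 in Siwi KD, a ratio of 1.02. The 2 abundant ones were Ins11 (1088 nt), with 57.3 RPKM in Luc KD, against 55.7 in Siwi KD, and BmTE_RM6-1226 (617 nt), with 42.5 and 44.7 RPKM. Their ratios were 0.97 (0.93 to 1.02) and 1.05 (0.98 to 1.12). In all, the interval included 1 for 5 of the 8 and lay above 1 for 3. These 3 were BmTE_RM6-5804 (ratio 1.15, 1.03 to 1.28) and BmTE_RM6-5103 (ratio 1.19, 1.01 to 1.39), both named after their values were seen, and BmTE_RM6-5261. BmTE_RM6-5261 (3106 nt), which passed 1 RPKM only in Siwi KD, had 0.516 RPKM from 196 reads and 1.21 RPKM from 488 reads, a ratio of 2.34 (1.85 to 3.0). The median log2 FC was 0.09 for Harbinger elements, against 0.35 for the other 71 DNA transposons.

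Transib elements, whose transposase is related to the RAG1 recombinase of vertebrate immune cells, were all higher in Siwi KD. All 3 listed were above 10 RPKM. BmTE_RM1-590 (696 nt) had 30.1 and 42.5 RPKM, BmTE_RM1-559 (1516 nt) 20.2 and 28.3 RPKM, and BmTE_RM6-3241 (1215 nt) 24.8 and 33.5 RPKM. The ratios were 1.41 (1.31 to 1.51), 1.40 (1.32 to 1.49) and 1.35 (1.27 to 1.43), so that their intervals overlapped and lay above 1. BmpiggyBac-MER85 (3504 nt), of the piggyBac superfamily first found in moth cells, had 91.0 RPKM in Luc KD (38970 reads) and 126.5 RPKM in Siwi KD (57548 reads), a ratio of 1.39 (1.37 to 1.42). The other piggyBac element above 1 RPKM, BmTE_RM6-5342, is given above. The hAT superfamily takes its name from the elements hobo, Ac and Tam3. Of its 3 members above 1 RPKM, 2 passed only in Siwi KD and thus had to be higher there, and the counting interval of 1 of these included 1. The other of these was Bmhopper (1992 nt), with 0.706 and 1.35 RPKM and a ratio of 1.92 (1.47 to 2.51). The remaining member, BmTE_RM5-1106 (588 nt), had 4.37 and 6.66 RPKM, a ratio of 1.52. The 3 Academ elements were also higher in Siwi KD, 1 of them having passed the threshold only there. The counting interval of another, BmTE_RM1-509 (9.03 and 9.62 RPKM), included 1 (0.96 to 1.18). Academ-1_BM, the longest DNA transposon at 5870 nt, had 1.48 and 2.10 RPKM, a ratio of 1.42 (1.27 to 1.59).

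In 5 superfamilies, a single element was above 1 RPKM. RPKM was lower in Siwi KD for 4 of these 5 elements, against 13 of all 79 DNA transposons. It was lower for 5072 of all 9549 sequences above 1 RPKM. The 5 carry different labels and are grouped only by this count, so no shared trait can be read from them. MITE-Hoshidandy is a miniature inverted-repeat element of 278 nt without a transposase gene. It had 32.3 RPKM in Luc KD (1096 reads) and 25.1 RPKM in Siwi KD (906 reads), a ratio of 0.78 (0.69 to 0.88). ISL2EU-1_BM (2695 nt) had 15.5 and 13.7 RPKM, a ratio of 0.88 (0.83 to 0.93). BmTE_RM6-1464, labelled Ginger2, had 2.32 RPKM from 128 reads and 1.47 RPKM from 86 reads, a ratio of 0.63 (0.42 to 0.95). Chapaev-1_BM, labelled EnSpm, had 4.68 and 4.0 RPKM, and its interval (0.73 to 1.00) included 1. The P-type element Kasu_polyA_type, whose superfamily is named for the P element of *Drosophila*, had 23.4 and 24.8 RPKM, a ratio of 1.06 (0.97 to 1.16).

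**Figure D3:**
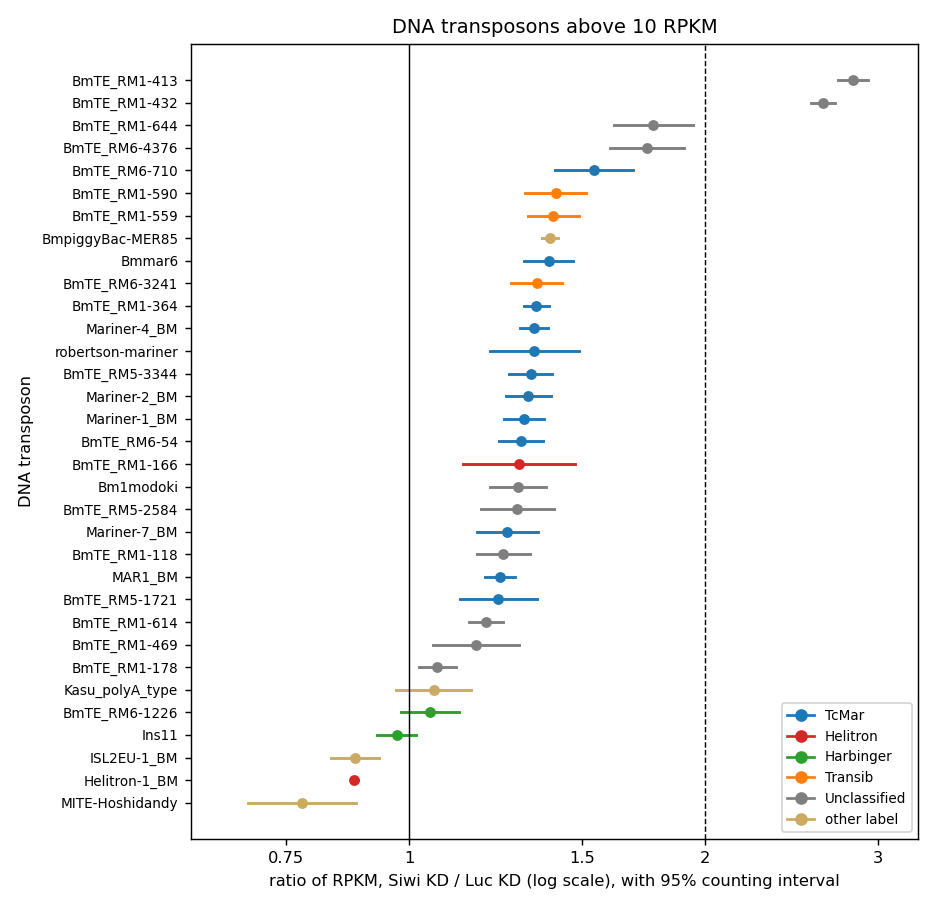
Ratio of RPKM in Siwi KD to Luc KD (x axis, log scale) with its 95% counting interval for the 33 DNA transposons above 10 RPKM in either condition (y axis), coloured by superfamily label. The solid line marks a ratio of 1 and the dashed line a ratio of 2. Intervals cover counting error only. Both elements beyond 2, BmTE_RM1-413 and BmTE_RM1-432, carry no superfamily label, and the 12 TcMar elements lie between 1.23 and 1.54.

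The DNA transposons without a superfamily label, given as Unclassified, made up 49.5% of the net increase. Of 19 listed, 16 were above 1 RPKM, 15 of them higher in Siwi KD. BmTE_RM1-432 (1742 nt) had 61.7 RPKM in Luc KD (13130 reads) and 163 RPKM in Siwi KD (36766 reads), a ratio of 2.64 (2.56 to 2.71) and a log2 FC of 1.38. BmTE_RM1-413 (3542 nt) had 20.03 RPKM (8672 reads) and 56.7 RPKM (26076 reads), a ratio of 2.83 (2.74 to 2.93) and a log2 FC of 1.46. These were the 2 elements above 10 RPKM with a log2 FC above 1. Their counting intervals did not overlap, and whether they share sequence is not known from the table. BmTE_RM1-644 (11.01 and 19.5 RPKM) and BmTE_RM6-4376 (8.11 and 14.2 RPKM) followed, with ratios of 1.77 and 1.75. Less change was seen in BmTE_RM1-178 (59.6 and 63.7 RPKM, ratio 1.07) and BmTE_RM1-614 (29.8 and 35.8 RPKM, ratio 1.20). Bm1modoki had 21.6 and 27.9 RPKM, a ratio of 1.29. Without BmTE_RM1-413 and BmTE_RM1-432, the summed RPKM of the other 14 had a ratio of 1.24.

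Length showed no clear relation to the change. Lengths ranged from 211 to 5870 nt (median 1307 nt). Over the 79, which share both merged libraries, the Spearman correlation of length with log2 FC was 0.14, and that of RPKM in Luc KD with log2 FC was 0.01. Without the pseudo-count, the latter was -0.24, and RPKM in Luc KD is also the denominator of that ratio. The median log2 FC was 0.26 for 24 elements of up to 1000 nt, 0.37 for 33 of over 1000 and up to 2000 nt and 0.32 for 22 above 2000 nt. Elements of over 1000 and up to 2000 nt held 46.2% of the summed RPKM in Luc KD and 74.9% of the net increase. In those above 2000 nt, which include Helitron-1_BM, the ratio of the sums was 1.09. Length did differ between elements that passed 1 RPKM and those that did not: of the 48 listed with up to 1000 nt, 24 passed, against 33 of 46 and 22 of 28 in the longer classes.

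**Figure D4:**
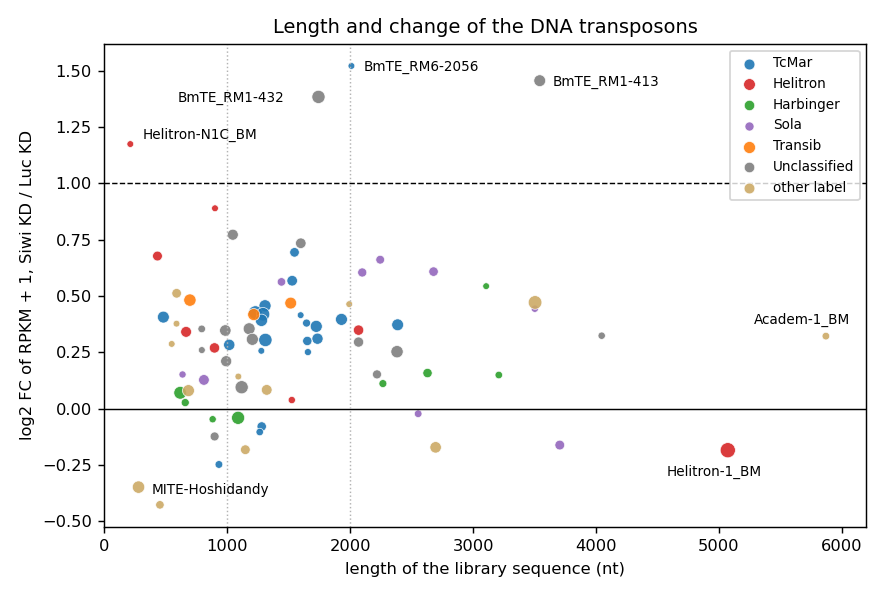
Length of each of the 79 DNA transposons in nt (x axis) and log2 FC of RPKM + 1, Siwi KD over Luc KD (y axis), coloured by superfamily label, with larger points for higher RPKM in Luc KD. Dotted lines mark 1000 and 2000 nt and the dashed line a log2 FC of 1. The 4 elements above the dashed line are 211, 1742, 2010 and 3542 nt long, and the lower values are found at short and long lengths alike.

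Compared with other groups above 1 RPKM, DNA transposons lay between LTR and LINE transposons in median change, but below both in the ratio of summed RPKM. The median log2 FC was 0.45 for 92 curated LTR, 0.32 for the 79 DNA and 0.24 for 78 curated LINE transposons, and it was 0.18 for 1157 gene models annotated as transposons and -0.07 for 7939 protein-coding genes. RPKM was higher in Siwi KD for 95.7% of LTR, 83.5% of DNA and 80.8% of LINE transposons. It was also higher for 79.6% of the gene models, 79.6% of all 1610 transposons and 40.3% of the protein-coding genes. A log2 FC above 1 was found for 14.1% of LTR, 5.06% of DNA and 3.85% of LINE transposons and 5.27% of the gene models, against 5.34% of all 1610 transposons above 1 RPKM. Above 10 RPKM, where the pseudo-count weighs less, this share was 6.06% for DNA and 4% for LINE transposons, but 39.4% for LTR transposons and 19.2% for the gene models. The median log2 FC above 10 RPKM was 0.37 for DNA transposons and also 0.37 for the gene models. It was 0.73 for LTR and 0.29 for LINE transposons. The ratio of summed RPKM was 2.22 for LTR, 1.50 for LINE and 1.24 for DNA transposons, and below 1 for curated SINE (0.87) and for curated transposons of other or no class (0.93). The 11 SINE had a median log2 FC of 0.35, and 63.6% were higher. None of these differences between groups was tested. DNA transposons held 3.69% of the summed RPKM of curated transposons in Luc KD and 4.23% in Siwi KD. Without the most abundant curated transposon, which has no class, these shares were 10.7% and 9.22%, so that the direction of the change depended on that sequence.

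**Figure D5:**
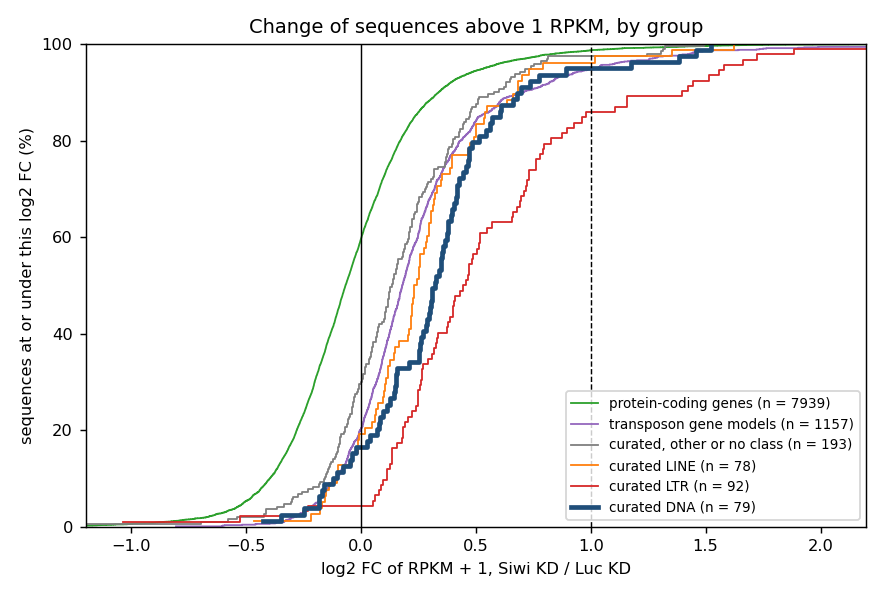
Share of sequences (y axis, percent) at or under each log2 FC of RPKM + 1, Siwi KD over Luc KD (x axis, without the most extreme values), for sequences above 1 RPKM in either condition. The thick line for the 79 DNA transposons lies to the right of the protein-coding genes (median 0.32 against -0.07) and, over most of its course, to the left of the LTR transposons (median 0.45).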

How the data were processed

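Total RNA from BmN4 cells with Luc KD or Siwi KD (2 libraries each) was depleted of ribosomal RNA and sequenced in pairs. Per the methods, the authors cleaned and trimmed reads, ran STAR against the genome first and the gene library second, allowing mismatches up to 4% of read length, kept sense reads and merged the replicates. The deposited counts are raw reads per sequence. The deposited RPKM values divide these counts by sequence length and by genome-mapped reads (122229138 in Luc KD, 129779634 in Siwi KD, recomputed here). The length column, deposited in another unit (nt), was used as given. Every count was even, so errors were computed on read pairs: 1 pair on 1000 nt is worth 0.0164 RPKM (Luc KD) or 0.0154 RPKM (Siwi KD).

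Curated DNA transposons were selected by the class in their entry and by RPKM above 1. The log2 FC used a pseudo-count of 1 RPKM. Ratio intervals are exact conditional binomial intervals on read pairs. With 1 value per condition, no test was possible. Elements could be named if above 10 RPKM, or if among the 10 highest or 10 lowest by log2 FC of the rest (with at least 100 reads). They could also be named if highest in Luc KD in a superfamily of at least 3 or if named for a known family. The 3 nearest to the threshold on either side were eligible too. Not all eligible elements were named, and a few others were named after their values were seen. Members and lists were chosen with earlier results of these data known. No sequence of an element was used here, and 0 members matched the reference table of gene names. Alternatives covered the pseudo-count, scaling, threshold, label and measure summed. The calculations were tested on simulated counts. The software was scipy 1.17.1, pandas 2.3.3, numpy 2.4.6 and matplotlib 3.10.9 under Python 3.11.15.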

Additional observations from a re-analysis of the deposited data

How the results depend on the processing

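No paired analysis was possible because the table holds 1 merged value per condition, and for the same reason no replicate could be left out. With a pseudo-count of 10 RPKM, the number of DNA transposons with a log2 FC above 1 was 2 in place of 4 and the median log2 FC was 0.11 in place of 0.32. With a pseudo-count of 0.1 RPKM, the number was 6 and the median 0.39. Scaled to reads on protein-coding genes, the median was 0.42 and the ratio of summed RPKM 1.34, and centred on the median of protein-coding genes the ratio was 1.30. Above 10 RPKM, 33 elements remained to be counted, 29 of them higher in Siwi KD and 2 with a log2 FC above 1, but 3 exceeded 10 RPKM only in Siwi KD and had to be higher there. Above 10 RPKM, 87.9% of DNA transposons, 88.3% of transposon gene models and 30.9% of protein-coding genes were higher. A log2 FC above 1 was found for 6.06%, 19.2% and 1.64% of them. Among elements with a superfamily label, 2 had a log2 FC above 1 and the ratio of the sums was 1.15. That ratio was 1.36 without Helitron-1_BM and 1.15 when reads were summed in place of RPKM. The share of curated-transposon RPKM in Luc KD, 3.69%, was 1.20% by reads, 10.7% without the most abundant curated transposon and 3.46% above 10 RPKM. In 3 alternatives chosen after seeing the data, 30 elements were above 10 RPKM in Luc KD, of which 26 were higher in Siwi KD and 2 had a log2 FC above 1, with a ratio of the sums of 1.23, 2 elements had a log2 FC above 1 among those above 1 RPKM in Luc KD, and the ratio of the sums was 1.18 without BmTE_RM1-432. For the counts by RPKM in Luc KD, shares over all sequences were not computed. No log2 FC below -1 was found (0 elements) under any alternative run.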

Other observations

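The other 43 curated DNA transposons did not exceed 1 RPKM in either condition, and 16 of them had no read in Luc KD or Siwi KD. The 16 without a read had a median length of 326 nt, against 1307 nt for the 79 above the threshold. They include 7 elements of the sub-label TcMar-Mariner and MITE-Nabedandy, a miniature element of 316 nt. Among the 11 under the threshold with at least 100 reads over both conditions, the RPKM ratio was above 2 for 4. Sola1-1_BM had 62 reads in Luc KD, against 208 in Siwi KD, and Sola1-2_BM had 144 and 424. BmTE_RM6-4218, labelled piggyBac, had 56 and 252 reads. BmTE_RM6-4471, labelled TcMar-m44, had 42 and 122 reads. These 4 were named after their values were seen. In contrast, Helitron-N1B_BM (266 nt) had 30 reads in Luc KD, against 24 in Siwi KD, whereas Helitron-N1C_BM had 24 and 92.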
